A study of Mus musculus with 16 samples.

Results

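Transporters of the families for glucose, lactate and amino acids were read across the differentiation of mouse embryonic stem cells (mESCs) into definitive endoderm and mesoderm. They were taken by symbol, as all genes named Slc1a, Slc2a, Slc7a, Slc16a or Slc38a and a number. This gave 58 of the 19938 genes that the arrays name through a probe set with a single gene symbol: 12 of the Slc2a family, 13 of Slc16a, 7 of Slc1a, 15 of Slc7a and 11 of Slc38a. Of these, 57 passed the filter on mean signal, which kept 18716 genes, and Slc7a12 did not. Where a gene had several probe sets, the brightest was used.

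The study profiled 8 groups of cells, each with 2 biological replicates, on 16 microarrays (Mouse Gene ST 1.0, Affymetrix). Of these, 7 were sorted by flow cytometry on Foxa2, T and the surface protein CD24, and the names follow the study. Definitive endoderm (DE) was Foxa2+ with high CD24 (F+CD24high) at days 4 and 2, and its progenitors (DEP) were Foxa2+ with low CD24 (F+CD24low) at days 4 and 2. Both grew with 12 ng/ml activin A. Mesoderm (MES) was T+ and CD24 negative (T+CD24neg) at day 4, and its progenitors (MP) were T+ with low CD24 (T+CD24low) at days 4 and 2. Both grew with less activin A (3 ng/ml) and with Bmp4 at 7.5 ng/ml. The differentiating cells were kept on feeders that secrete Wnt3a. Undifferentiated mESCs (ES) were not sorted and grew with serum, LIF and added non-essential amino acids on fibroblast feeders. All groups, ES included, carry TGFP/+; Foxa2tagRFP/+, so that all are heterozygous for a T allele that encodes GFP in place of T and for a Foxa2 allele fused to tagRFP. The labels give the parental line as E14.1, whereas the study's methods name G4 mESCs for these alleles, and the data cannot tell which is right. DE and MES differ in CD24 gate, lineage and medium at once, and these cannot be told apart. ES differ from every sorted group in medium, feeders and sorting too.

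Slc2a proteins carry glucose down its gradient, and Slc16a proteins of the monocarboxylate group move lactate and pyruvate together with protons. Slc1a proteins take up glutamate or exchange alanine, serine, cysteine and glutamine. Most Slc7a proteins are light chains that reach the membrane only when bound to the heavy chain Slc3a2 or Slc3a1, and the others carry arginine and lysine on their own. Slc38a proteins take up glutamine and other small neutral amino acids with sodium. Embryonic stem cells are known for a high use of glucose, with much of it leaving as lactate, and for their need of threonine and glutamine.

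Values are the deposited log2 signals of a probe set on 1 array, and differences are log2 fold changes. A gene was called, and is said to have risen or fallen, where the absolute log2 fold change was above 1 and the adjusted p (limma, Benjamini–Hochberg over 32000 probe sets) below 0.05. A level can be compared between samples for 1 gene, not between genes. Array medians lay between 7.42 and 7.49, and replicates correlated at r between 0.987 and 0.994. In DE at day 4, 9 of 10 endoderm markers were higher and 10 of 10 mesoderm markers lower than in MES. The endoderm markers include Foxa2, on which the cells were sorted. In DEP compared with MP, 4 of 10 endoderm markers were higher and 7 of 10 mesoderm markers lower. In MES compared with MP on day 4, 4 of 10 endoderm and 5 of 10 mesoderm markers were higher. Cd24a was higher in DE than in DEP by 0.62 on day 2 and 0.46 on day 4. The mean log2 value of 20 fibroblast markers was 7.28 to 7.75 on sorted arrays and 9.71 to 10.1 on ES arrays. This signal therefore differs in every comparison with ES. Whether it is RNA of the fibroblast feeders was not tested. In bulk RNA fewer cells of a type and less RNA per cell cannot be told apart.

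Of the 57 transporters, 15 were called in at least 1 of 11 comparisons between groups and 42 in none. The 15 were Slc2a3 for glucose, Slc16a1, Slc16a9 and Slc16a13 of the monocarboxylate family, and 11 amino acid transporters (Slc1a3, Slc1a4, Slc1a5, Slc7a1, Slc7a3, Slc7a6, Slc7a8, Slc7a11, Slc38a1, Slc38a3 and Slc38a5). The widest span of the 8 group means was 4.51 on the log2 scale, for Slc7a8, and that of Slc38a5 was 4.28. Among the 42 the span ran between 0.17 and 1.26, and it was under 0.5 for 25 of them. The median log2 fold change over the 57 was between 0.01 and 0.15 in the 11 comparisons, and that over all genes was at most 0.07.

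**Figure D1:**
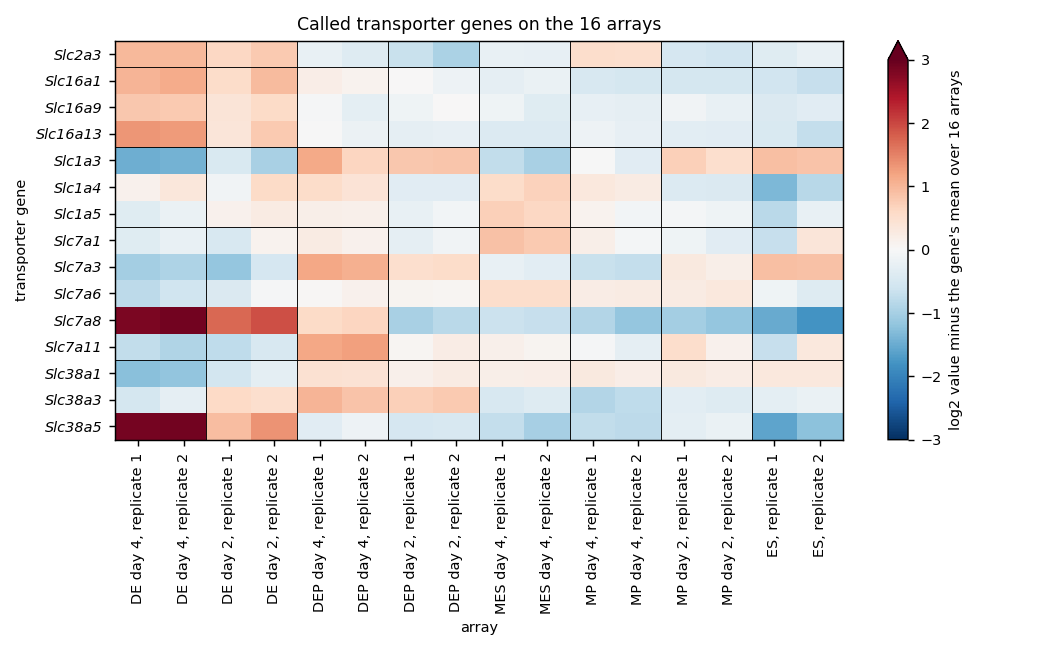
The 15 transporter genes called in at least 1 comparison (rows, by family) on the 16 arrays (columns, by group), coloured by the log2 value minus the gene's mean over the 16 arrays; the colours end at 3 in both directions. Slc7a8 and Slc38a5 are high on the 4 DE arrays, most of all at day 4, where Slc1a3, Slc7a3 and Slc38a1 are low.

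From DEP to DE, in the same medium and on the same days, the transporter set split. Slc7a8, a light chain that exchanges large and small neutral amino acids, Slc38a5, which carries glutamine, asparagine, serine and glycine, the high-affinity glucose transporter Slc2a3 and the monocarboxylate family member Slc16a13 rose. Slc1a3, a glutamate and aspartate transporter, Slc7a3, a carrier of arginine and lysine, Slc7a11, the cystine light chain, and Slc38a1, a sodium-coupled glutamine carrier, fell. That is 4 higher and 4 lower of 57 (14.0%), against 2.2% of all genes higher and 2.47% lower (4.67% in all). On day 4 alone 9 transporters were called, the 8 and Slc38a3, against 6.36% of all genes, and on day 2 alone 5 of the 8, against 3.61%. Of 10 pluripotency markers 5 also fell and 0 rose (median -1.13), with means over the 10 of 8.17 to 8.98 on DE arrays, 9.78 to 10.1 on DEP arrays and 11.5 to 11.9 on ES arrays, and of 10 visceral endoderm markers 3 rose. The part of either cell type in these results was not tested. Of all 57, 41 had an absolute log2 fold change under 0.5.

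Slc7a8 showed the widest span. Its log2 values were 12.27 and 12.35 in DE at day 4, 11.17 and 11.39 in DE at day 2, 10.03 and 10.10 in DEP at day 4, and 8.47 and 8.65 in DEP at day 2. They were 8.81 and 8.76 in MES at day 4, 8.57 and 8.29 in MP at day 4, 8.42 and 8.30 in MP at day 2, and 7.94 and 7.67 in ES. All DE arrays lay above all others, DEP at day 4 came next, and ES were lowest. Slc7a8 was 5.58-fold higher in DE than in DEP (log2 fold change 2.48 ± 0.090 (SE), adjusted p = 9.05e-09), with 2.24 on day 4 and 2.72 on day 2.

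Slc38a5 was also highest in DE. It read 11.18 and 11.21 in DE at day 4, 9.24 and 9.66 in DE at day 2, 7.97 and 8.16 in DEP at day 4, and 7.82 and 7.84 in DEP at day 2. In the other groups it read 7.60 and 7.32 in MES at day 4, 7.58 and 7.54 in MP at day 4, 8.04 and 8.12 in MP at day 2, and 6.73 and 7.09 in ES. DE arrays did not overlap those of any other group, and the day 4 arrays were well above those of day 2. The difference to DEP was 5.18-fold over both days (log2 fold change 2.37 ± 0.11 (SE), adjusted p = 5.31e-08). It was 3.13 on day 4 and 1.62 on day 2, and this change with the day passed its own test (log2 fold change 1.51 ± 0.22 (SE), adjusted p = 0.00774). It passed for 3 of 57 transporters, Slc38a5 upward and Slc38a1 (-1.05, on its brighter probe set only) and Slc38a3 (-1.14) downward. Of all genes it passed for 0.508% upward and 0.545% downward (1.05% in all).

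The 250 bases before the start of Slc7a8 and Slc38a5 are shown since these genes changed most. They are taken from RefSeq on GRCm38.p6 and written 5′ to 3′ on the strand of the gene, chr14:54781887-54782136 on the minus strand for Slc7a8 and chrX:8271131-8271380 on the plus strand for Slc38a5. Capitals mark the E-box CACGTG.
Slc7a8: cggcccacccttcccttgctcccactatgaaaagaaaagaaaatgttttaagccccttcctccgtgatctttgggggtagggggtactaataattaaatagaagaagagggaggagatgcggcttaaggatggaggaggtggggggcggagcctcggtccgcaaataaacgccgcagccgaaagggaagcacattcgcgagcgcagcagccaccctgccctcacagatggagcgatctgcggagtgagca
Slc38a5: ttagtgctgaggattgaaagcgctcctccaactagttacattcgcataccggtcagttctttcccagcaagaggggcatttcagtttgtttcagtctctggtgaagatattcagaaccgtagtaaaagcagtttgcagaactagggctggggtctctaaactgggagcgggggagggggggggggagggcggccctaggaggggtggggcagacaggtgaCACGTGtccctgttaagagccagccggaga
RefSeq windows matched 43 of the 58 transporters. The E-box, which reads the same on both strands, was in 7 of the 53 windows of these genes and in 6.02% of all 32851 windows of this length. The 7 windows belong to 7 of the 43 genes, Slc38a5 and Slc16a1 among them. In Slc38a5 it begins at position -30 relative to the start, and Slc7a8 has no such letters in this window. A match of letters is a description of the sequence only.

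Slc2a3 rose in endoderm while Slc2a1, the broadly expressed glucose transporter, was not called. Slc2a3 had log2 values of 13.80 and 13.81 in DE at day 4, 13.44 and 13.62 in DE at day 2, 12.60 and 12.45 in DEP at day 4, and 12.16 and 11.87 in DEP at day 2. Its values were 12.62 and 12.60 in MES at day 4, 13.37 and 13.33 in MP at day 4, 12.32 and 12.27 in MP at day 2, and 12.46 and 12.60 in ES. All 4 DE arrays were the highest of the 16, followed by MP at day 4. Slc2a3 was 2.64-fold higher in DE than in DEP (log2 fold change 1.40 ± 0.077 (SE), adjusted p = 1.72e-07). Slc2a1 lay between 12.70 and 13.29 on all 16 arrays, and its 11 log2 fold changes ran between -0.22 and 0.36, none of them called. None of the other 10 Slc2a genes was called in any of the 11 comparisons.

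Among the monocarboxylate family, Slc16a1, the main proton-coupled lactate carrier of many tissues, Slc16a13 and Slc16a9, which is linked to carnitine in human, were highest in DE. Slc16a1 read 12.95 and 13.05 in DE at day 4, 12.49 and 12.87 in DE at day 2, 12.12 and 12.03 in DEP at day 4, and 11.94 and 11.77 in DEP at day 2. It read 11.65 and 11.73 in MES at day 4, 11.44 and 11.41 in MP at day 4, 11.41 and 11.39 in MP at day 2, and 11.34 and 11.22 in ES. Every DE array was above every other array, DEP followed, and MP and ES were lowest. Slc16a1 was above the fold threshold in DE compared with MES and with ES, and compared with DEP it was at 0.88 (adjusted p = 1.40e-05).

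Slc16a13 stood at 10.63 and 10.58 in DE at day 4, 9.67 and 10.07 in DE at day 2, 9.28 and 9.13 in DEP at day 4, and 9.02 and 9.05 in DEP at day 2. It stood at 8.89 and 8.88 in MES at day 4, 9.16 and 9.04 in MP at day 4, 8.99 and 8.96 in MP at day 2, and 8.85 and 8.58 in ES. Here too the 4 DE arrays did not overlap the others, and the day 4 arrays were above those of day 2. The rise over DEP (log2 fold change 1.12 ± 0.092 (SE), adjusted p = 3.83e-06) did not pass on day 2 alone (0.83, and 1.40 on day 4).

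Slc16a9 gave 8.60 and 8.57 in DE at day 4, 8.18 and 8.35 in DE at day 2, 7.74 and 7.50 in DEP at day 4, and 7.66 and 7.81 in DEP at day 2. For the rest it gave 7.67 and 7.41 in MES at day 4, 7.54 and 7.53 in MP at day 4, 7.68 and 7.57 in MP at day 2, and 7.35 and 7.44 in ES. DE arrays were again the highest, and the other groups overlapped among themselves. The other 10 Slc16a genes were not called in any of the 11 comparisons, Slc16a3, the exporter of lactate in glycolytic cells, among them.

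The window before Slc16a1 (chr3:104638414-104638663, plus strand, RefSeq on GRCm38.p6) is given since it holds the E-box, in capitals, at position -200.
Slc16a1: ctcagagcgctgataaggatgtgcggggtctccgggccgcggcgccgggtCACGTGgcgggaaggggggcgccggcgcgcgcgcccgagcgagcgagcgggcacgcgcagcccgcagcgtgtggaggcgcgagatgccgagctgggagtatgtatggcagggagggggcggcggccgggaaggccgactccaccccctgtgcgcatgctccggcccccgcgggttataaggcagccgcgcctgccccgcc

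Some monocarboxylate carriers need a chaperone to reach the membrane, either Bsg or Emb. Of 5 heavy chain and chaperone genes 1 was called, Emb, in DE compared with DEP, MES at day 4 and ES. Of all genes 4.67%, 7.86% and 9.21% were called in these comparisons. Emb (embigin) had values of 13.33 and 13.32 in DE at day 4, 13.12 and 13.14 in DE at day 2, 12.23 and 12.19 in DEP at day 4, and 11.80 and 11.98 in DEP at day 2. In the remaining groups they were 12.12 and 12.32 in MES at day 4, 11.83 and 11.97 in MP at day 4, 12.46 and 12.55 in MP at day 2, and 11.84 and 11.94 in ES. DE arrays lay above all others. Emb was higher in DE than in DEP by 1.18 (adjusted p = 2.55e-07), than in MES at day 4 by 1.11 (adjusted p = 6.97e-06) and than in ES by 1.33 (adjusted p = 3.15e-07). Bsg, the heavy chains Slc3a2 and Slc3a1, and Nptn were not called in any of the 11 comparisons. Slc3a2, the partner of Slc7a8 and Slc7a11, lay between 12.92 and 13.32 on all arrays.

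**Figure D2:**
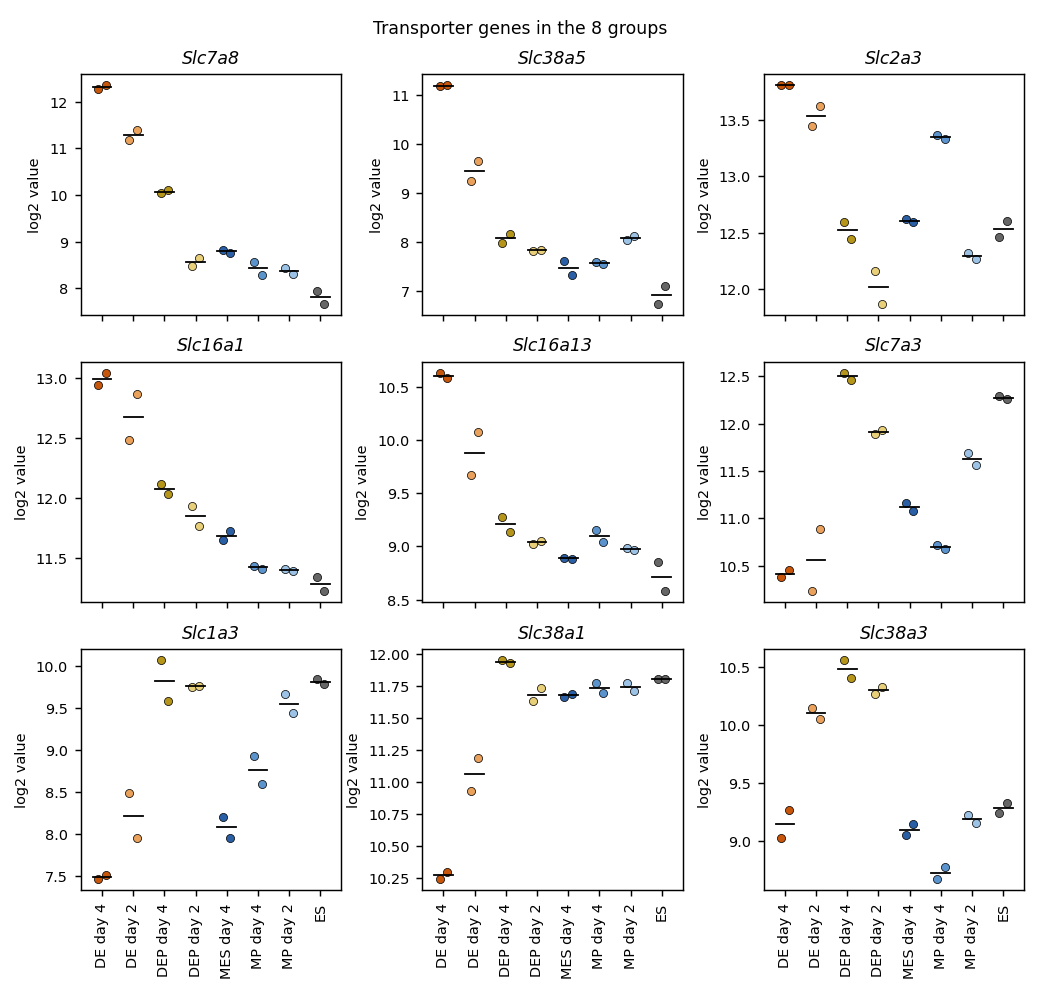
Log2 values of 9 transporter genes in the 8 groups. Each point is 1 array, and bars are means of 2 replicates. The top row and the first panels of the middle row show genes highest in DE, and the other panels show Slc7a3, Slc1a3 and Slc38a1, lower in DE than in DEP, and Slc38a3, which is high in DEP and in DE at day 2. The axes do not start at 0 and differ between panels.

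Slc1a3 had log2 values of 7.46 and 7.51 in DE at day 4, 8.48 and 7.95 in DE at day 2, 10.06 and 9.57 in DEP at day 4, and 9.75 and 9.76 in DEP at day 2. Elsewhere its values were 8.20 and 7.95 in MES at day 4, 8.92 and 8.59 in MP at day 4, 9.66 and 9.43 in MP at day 2, and 9.84 and 9.78 in ES. DEP, MP at day 2 and ES were high, and DE and MES were low without overlap with these. The drop in DE compared with DEP was 3.83-fold (log2 fold change -1.94 ± 0.14 (SE), adjusted p = 1.20e-06). The other glutamate carriers of the family (Slc1a1, Slc1a2, Slc1a6 and Slc1a7) moved by at most 0.29 between group means and were not called.

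Slc7a3 gave 10.38 and 10.45 in DE at day 4, 10.23 and 10.89 in DE at day 2, 12.54 and 12.46 in DEP at day 4, and 11.89 and 11.93 in DEP at day 2. It gave 11.16 and 11.08 in MES at day 4, 10.72 and 10.68 in MP at day 4, 11.69 and 11.56 in MP at day 2, and 12.29 and 12.26 in ES. Both ES arrays and DEP at day 4 were highest, and DE and MP at day 4 were lowest. It was 3.29-fold lower in DE than in DEP (log2 fold change -1.72 ± 0.11 (SE), adjusted p = 6.21e-07).

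Slc38a1 was at 10.24 and 10.30 in DE at day 4, 10.93 and 11.19 in DE at day 2, 11.95 and 11.93 in DEP at day 4, and 11.63 and 11.74 in DEP at day 2. Values in the other groups were 11.67 and 11.69 in MES at day 4, 11.78 and 11.70 in MP at day 4, 11.78 and 11.71 in MP at day 2, and 11.81 and 11.81 in ES. On this probe set only the DE arrays fell outside a narrow band, and those of day 4 were lower than those of day 2. The drop from DEP was 2.22-fold (log2 fold change -1.15 ± 0.066 (SE), adjusted p = 2.31e-07), at -1.67 on day 4 and -0.62, under the threshold of 1, on day 2. A dimmer probe set of Slc38a1 also read lower in DE (-0.998 compared with DEP, adjusted p = 1.62e-04). The probe sets disagree for MES compared with ES, at -1.15 in the dimmer and -0.13 in the brighter one. Compared with ES, the dimmer one was also lower in DEP (-0.77) and MP (-0.66), where the brighter one was at 0.01 and -0.07. In DE compared with MES at day 4 the dimmer one was at -0.69, under the threshold, and the brighter one at -1.41.

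Slc7a11 imports cystine in exchange for glutamate, and cystine feeds the synthesis of glutathione. Its values were 5.63 and 5.47 in DE at day 4, 5.62 and 5.89 in DE at day 2, 7.52 and 7.59 in DEP at day 4, and 6.43 and 6.60 in DEP at day 2. They were 6.52 and 6.44 in MES at day 4, 6.32 and 6.11 in MP at day 4, 6.90 and 6.49 in MP at day 2, and 5.68 and 6.70 in ES. DEP at day 4 was the highest group, and the DE arrays lay below all DEP arrays, while the ES arrays differed by more than 1 from each other. The drop in DE compared with DEP (log2 fold change -1.38 ± 0.18 (SE), adjusted p = 0.000168) was -2.01 on day 4 and -0.76 (adjusted p = 0.0980) on day 2. The values on DE arrays lay well below the array medians of 7.42 to 7.49. Low signals are compressed, so the size of this drop is uncertain.

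Genes that make cysteine and glutathione were lower together with Slc7a11 in this comparison. Of 13 tested genes of serine, glycine, threonine and cystine metabolism 4 fell and 0 rose (2.47% of all genes fell), with a median of -0.22 for the 13. They were Cth (-1.57) and Cbs (-1.30), the transsulfuration enzymes that turn homocysteine into cysteine, and Gclc (-1.34) and Gclm (-1.26), the subunits of the enzyme that starts glutathione synthesis. Cth read 7.81 and 8.03 in DE at day 4, 9.14 and 9.13 in DE at day 2, 10.07 and 10.21 in DEP at day 4, and 10.07 and 10.06 in DEP at day 2. The DE arrays at day 4 were the lowest, and those at day 2 were also below all DEP arrays. Gclc read 9.62 and 9.74 in DE at day 4, 10.32 and 10.35 in DE at day 2, 11.21 and 11.14 in DEP at day 4, and 11.46 and 11.57 in DEP at day 2. It had the same order, with no overlap between DE and DEP. Of 15 genes of amino acid sensing by mTORC1, Rragb (-2.41, adjusted p = 7.70e-08) and Rragd (-1.31, adjusted p = 1.75e-06), Rag GTPases that bring mTORC1 to the lysosome, fell and 0 rose. Rragb read 5.90 and 6.07 in DE at day 4, 7.48 and 7.68 in DE at day 2, 9.15 and 9.42 in DEP at day 4, and 9.10 and 9.10 in DEP at day 2. DE arrays were more than 1 below DEP, and lowest at day 4. Of 14 genes of the amino acid response only Vldlr, a lipoprotein receptor, was called (1.35), and Atf4 and Chac1 were not. Of 10 genes of glutamine, glutamate and proline metabolism Gpt2, which makes alanine from glutamate and pyruvate, fell (-1.16).

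**Figure D3:**
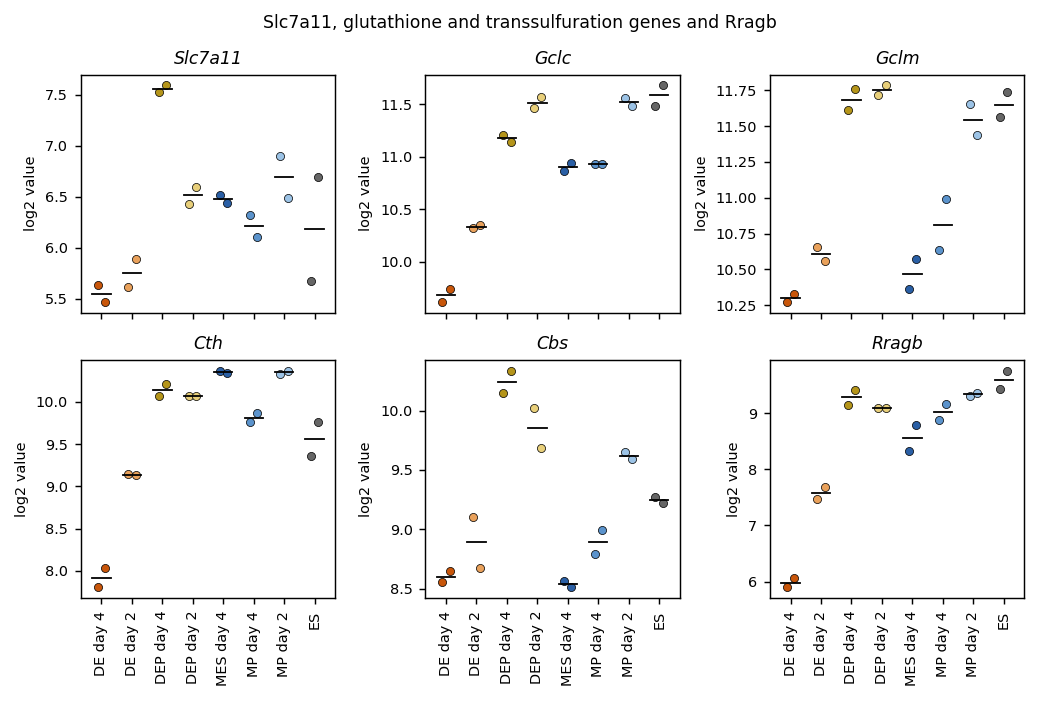
Log2 values of Slc7a11, of 4 genes of glutathione and cysteine synthesis and of Rragb in the 8 groups, with a point for each array and a bar for the mean of 2 replicates. All 6 genes are lower in DE than in DEP, and Gclm and Cbs are also low in MES and in MP at day 4. The axes do not start at 0.

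The window before Slc7a11 (chr3:50443614-50443863, minus strand, RefSeq on GRCm38.p6) is shown since it holds, in capitals, 2 copies of the composite C/EBP-ATF element TGATGNAA that amino acid response genes carry, searched on both strands. They begin at positions -66 and -47 relative to the start, on opposite strands.
Slc7a11: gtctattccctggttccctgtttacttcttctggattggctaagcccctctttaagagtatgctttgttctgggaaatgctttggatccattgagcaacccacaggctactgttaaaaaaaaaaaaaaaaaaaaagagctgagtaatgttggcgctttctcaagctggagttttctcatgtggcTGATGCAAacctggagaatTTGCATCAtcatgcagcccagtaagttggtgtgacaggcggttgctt
The element was in 3 of the 53 windows, from 2 of the 43 matched transporters (Slc7a11 and Slc7a7), and in 3.45% of all windows. The forkhead core TNTTTAC, on either strand, was in 1 of the 53 windows, that of Slc7a11, at position -232, and in 10.9% of all windows. None of these matches overlap each other, and no factor was measured on them here.

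In DE at day 4 compared with MES at day 4, 6 transporters were higher and 3 lower of 57 (15.8%), against 4.26% higher and 3.61% lower among all genes (7.86% in all). Slc38a5 (13.3-fold, log2 fold change 3.74 ± 0.15 (SE), adjusted p = 2.05e-08) and Slc7a8 (11.5-fold, log2 fold change 3.52 ± 0.13 (SE), adjusted p = 7.54e-09) led, followed by Slc16a13 (1.72), Slc16a1 (1.31), Slc2a3 (1.20) and Slc16a9 (1.04). Slc38a1 (log2 fold change -1.41 ± 0.094 (SE), adjusted p = 7.18e-07), Slc7a6, which exchanges arginine for neutral amino acids (log2 fold change -1.22 ± 0.13 (SE), adjusted p = 2.54e-05), and Slc7a1, the widely expressed arginine and lysine carrier (log2 fold change -1.12 ± 0.27 (SE), adjusted p = 0.0120), were lower. No array of DE overlapped one of MES for any of the 9. The dimmer probe set of Slc38a1 was at -0.69, under the threshold of 1. Of 10 visceral endoderm markers 5 were also higher and 0 lower in DE at day 4 than in MES (median 1.17), and of 10 pluripotency markers 1 was higher and 5 lower. Their part in these values was not tested. In the Slc16a family 3 of 13 genes were higher and 0 lower, with a family median of 0.40, whereas medians of the other families were between -0.02 and 0.05. Slc7a3 and Slc1a3 were not called, at -0.70 (adjusted p = 0.00770) and -0.59 (adjusted p = 0.0522).

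Slc7a6 had values of 10.57 and 10.75 in DE at day 4, 10.92 and 11.31 in DE at day 2, 11.39 and 11.47 in DEP at day 4, and 11.44 and 11.41 in DEP at day 2. Its values were 11.87 and 11.88 in MES at day 4, 11.58 and 11.60 in MP at day 4, 11.59 and 11.66 in MP at day 2, and 11.22 and 10.97 in ES. DE at day 4 was lowest, ES and DE at day 2 came next with overlap, and MES was highest. Slc7a1 had 9.69 and 9.83 in DE at day 4, 9.56 and 10.15 in DE at day 2, 10.28 and 10.17 in DEP at day 4, and 9.77 and 9.93 in DEP at day 2. Its other values were 10.93 and 10.82 in MES at day 4, 10.23 and 9.99 in MP at day 4, 9.90 and 9.70 in MP at day 2, and 9.36 and 10.40 in ES. MES was highest, and ES held the lowest array of the 16 and, after MES, the highest. Leaving out DE day 4 replicate 1 or MES replicate 1 ended the call of Slc7a1 (-1.05, adjusted p = 0.0787 and -1.06, adjusted p = 0.0683), and leaving out MES replicate 2 took Slc16a9 below the threshold (0.92). With both days of DE averaged, Slc7a6 (-0.99) and Slc16a9 (0.89) were under the fold threshold compared with MES.

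Of the same metabolic lists, Cth (-2.44, adjusted p = 9.05e-08), Gclc (-1.22, adjusted p = 1.79e-06) and Shmt2, the mitochondrial enzyme that turns serine into glycine (-1.01, adjusted p = 0.000634), were lower in DE at day 4 than in MES, and 0 of the 13 were higher. Gpt2 (-1.65, adjusted p = 0.000552), Rragb (-2.58, adjusted p = 6.31e-07), the stress factor Atf3 (-1.59, adjusted p = 0.000137) and Pfkfb3, which makes an activator of glycolysis (-1.12, adjusted p = 2.21e-05), were also lower. Castor2, a relative of the arginine sensor of mTORC1, was higher (1.15, adjusted p = 0.000437). Pfkfb3 was the sole call of 13 genes of glucose entry and lactate handling, a share close to the 7.86% of all genes.

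Between the progenitors DEP and MP, whose CD24 gates are alike, 2 transporters were called. Slc38a3, a carrier of glutamine and histidine, and Slc7a3 were higher in DEP and 0 were lower. They are 3.51% of the 57, against 0.999% higher and 0.983% lower among all genes (1.98% in all). Slc38a3 had log2 values of 9.02 and 9.27 in DE at day 4, 10.14 and 10.05 in DE at day 2, 10.55 and 10.40 in DEP at day 4, and 10.26 and 10.33 in DEP at day 2. Its values were 9.05 and 9.14 in MES at day 4, 8.67 and 8.77 in MP at day 4, 9.22 and 9.15 in MP at day 2, and 9.24 and 9.33 in ES. DEP and DE at day 2 were high, and DE at day 4, MES, MP and ES lay together below them. It was 2.70-fold higher in DEP than in MP (log2 fold change 1.43 ± 0.072 (SE), adjusted p = 2.87e-07), with 1.76 on day 4 and 1.11 on day 2. Slc7a3 (log2 fold change 1.04 ± 0.11 (SE), adjusted p = 8.31e-05) passed on day 4 (1.80) and did not pass on day 2 (0.29, adjusted p = 0.601). On day 4 alone 7 transporters were called, against 3.55% of all genes, and on day 2 alone 1, against 1.19%. The change of this difference with the day passed for 3 upward and for 0 downward (0.657% and 0.908% of all genes, 1.57% in all): Slc7a3 (log2 fold change 1.51 ± 0.23 (SE), adjusted p = 0.00416), Slc7a8 (log2 fold change 1.43 ± 0.18 (SE), adjusted p = 0.00159) and Slc7a7, a light chain that exchanges arginine for neutral amino acids (log2 fold change 1.05 ± 0.12 (SE), adjusted p = 0.00100). Slc7a7 read 11.85 and 11.84 in DEP at day 4 and 11.40 and 11.47 in DEP at day 2, against 10.64 and 10.65 in MP at day 4 and 11.29 and 11.29 in MP at day 2. MP at day 4 lay below the other 3, and DEP at day 4 was highest. Txnip, which restrains glucose uptake, was lower in DEP than in MP over both days (-1.04, adjusted p = 0.00258), at -1.99 on day 4 and -0.094 on day 2 (adjusted p = 0.966), where the arrays of DEP and MP overlapped.

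From MP to MES on day 4, limma called 0 of 57 transporters, against 0.369% of all genes higher and 0.807% lower (1.18% in all). At an adjusted p below 0.05 with no fold limit there were 4, Slc2a3 (-0.74, adjusted p = 0.00256), Slc2a12 (-0.69, adjusted p = 0.0147), Slc7a14 (-0.51, adjusted p = 0.0190) and Slc1a5 (0.65, adjusted p = 0.0460), and 14 had an unadjusted p below 0.05. Of all genes 4.59% had such an adjusted p and 16.2% such an unadjusted p. Values ran between -0.74 and 0.77. Txnip (-1.34, adjusted p = 0.0121) and Castor2 (-1.18, adjusted p = 0.00218) were lower and Vldlr (1.02, adjusted p = 0.00158) higher in MES.

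The step from progenitor to lineage was tested against that of the other lineage, as DE minus DEP less MES minus MP on day 4. The CD24 gates move in opposite directions in these steps. Cd24a was higher in DE than in DEP by 0.46, and read 11.04 and 11.12 in MES against 12.45 and 12.33 in MP. Direction of the gate, lineage and medium differ at once between the steps and cannot be told apart. Of 57 transporters 11 passed, 4 with a larger value in the endoderm step and 7 with a smaller one, against 3.99% and 3.4% of all genes (7.39% in all). Slc38a5 differed most (log2 fold change 3.23 ± 0.22 (SE), adjusted p = 7.21e-06), at 3.13 in the endoderm step and -0.10 in the mesoderm step. Slc7a3 differed by -2.50 (adjusted p = 3.55e-05), at -2.09 and 0.42, and Slc7a11 by -2.27 (adjusted p = 0.00163), at -2.01 and 0.26. Slc2a3 differed by 2.02 (adjusted p = 1.45e-05), at 1.28 in the endoderm and -0.74 in the mesoderm step. The 2 steps have no array in common.

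**Figure D4:**
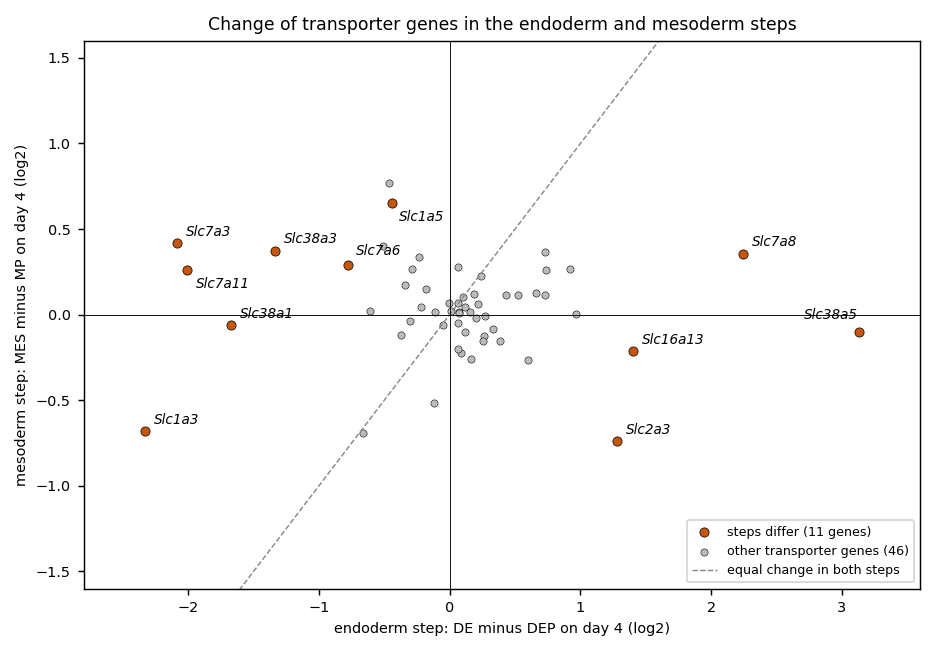
The 57 transporter genes by their log2 fold change in the endoderm step (DE minus DEP on day 4, horizontal) and in the mesoderm step (MES minus MP on day 4, vertical). The 11 named genes are those whose steps differed (absolute difference above 1 and adjusted p below 0.05), and the dashed line marks equal change. Values span -2.33 to 3.13 in the endoderm step and -0.74 to 0.77 in the mesoderm step.

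Compared with ES, every population had transporters that were called, and all these comparisons share the same 2 ES arrays. In DE 7 were higher and 3 lower (17.5% of 57, against 3.56% and 5.65% of all genes, 9.21% in all). Slc7a8 (15.9-fold, log2 fold change 3.99 ± 0.11 (SE), adjusted p = 7.43e-10) and Slc38a5 (10.6-fold, log2 fold change 3.41 ± 0.13 (SE), adjusted p = 7.95e-09) were far above ES. Slc16a1 (1.56), Slc16a13 (1.53), Slc1a4, an exchanger of alanine, serine and cysteine (1.33), Slc2a3 (1.14) and Slc16a9 (1.03) were higher too. Slc1a3 (log2 fold change -1.96 ± 0.17 (SE), adjusted p = 3.85e-06), Slc7a3 (log2 fold change -1.79 ± 0.14 (SE), adjusted p = 1.60e-06) and Slc38a1 (log2 fold change -1.14 ± 0.081 (SE), adjusted p = 8.17e-07) were lower. The 10 were all called with the DE arrays of day 4 alone (11.4% of all genes), and 8 of them with those of day 2 (8.29%). Of 10 visceral endoderm markers 5 were also higher and 0 lower in DE than in ES (median 0.88), and all 10 pluripotency markers were lower, and their part was not tested. In DEP 4 were higher and 0 lower (7.02%, against 1.84% and 3.3% of all genes, 5.13% in all): Slc7a8 (1.51), Slc1a4 (1.16), Slc38a3 (1.11) and Slc38a5 (1.03). With the DEP arrays of day 4 alone the 4 and Slc7a11 were higher (5.78% of all genes were called). With those of day 2 alone only Slc38a3 remained (4.74% of all genes were called), and Slc7a8 was at 0.76.

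In MES compared with ES, Slc1a4 (log2 fold change 1.70 ± 0.20 (SE), adjusted p = 8.83e-05) and Slc1a5, the sodium-dependent glutamine exchanger (log2 fold change 1.19 ± 0.16 (SE), adjusted p = 0.000216), were higher, and Slc1a3 (log2 fold change -1.73 ± 0.19 (SE), adjusted p = 6.01e-05) and Slc7a3 (log2 fold change -1.15 ± 0.16 (SE), adjusted p = 0.000296) lower (7.02% of 57, against 2.59% higher and 4.5% lower, 7.09% in all). In MP compared with ES, Slc1a4 was higher (log2 fold change 1.02 ± 0.17 (SE), adjusted p = 0.00143) and Slc7a3 lower (log2 fold change -1.11 ± 0.14 (SE), adjusted p = 0.000140) (3.51%, against 1.69% and 3.46%, 5.15% in all). The shares in MES and in MP are near or below those of all genes. With the MP arrays of day 2 alone neither was called, at 0.67 and -0.65, while Slc16a10 (1.03) and Slc38a5 (1.16) were (4.94% of all genes). With those of day 4 alone 5 were called (6.24%), Slc2a12, Slc1a3 and Slc7a7 beside Slc1a4 and Slc7a3.

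Slc1a4 was higher in all 4 populations than in ES. It had values of 10.50 and 10.71 in DE at day 4, 10.27 and 10.95 in DE at day 2, 10.92 and 10.77 in DEP at day 4, and 10.04 and 10.03 in DEP at day 2. It had 10.91 and 11.05 in MES at day 4, 10.67 and 10.61 in MP at day 4, 9.97 and 9.93 in MP at day 2, and 9.03 and 9.52 in ES. No sorted array lay as low as the ES arrays. Slc1a5 had 10.67 and 10.82 in DE at day 4, 11.15 and 11.28 in DE at day 2, 11.19 and 11.18 in DEP at day 4, and 10.80 and 10.94 in DEP at day 2. It had 11.73 and 11.65 in MES at day 4, 11.13 and 10.94 in MP at day 4, 10.95 and 10.89 in MP at day 2, and 10.20 and 10.80 in ES. MES was highest, while ES replicate 2 lay within the range of DE at day 4. ES replicate 1 read lower than replicate 2 for Slc1a4, Slc1a5, Slc7a1 and Slc7a11, and so it did for Chac1, a target of the amino acid response (8.27 and 10.14). DE day 2 replicate 1 also read lower than replicate 2 for these genes, with Chac1 at 8.87 and 10.62. Without ES replicate 1, Slc1a4 was at 0.91 in DEP and 0.77 in MP, Slc1a5 at 0.89 in MES, Slc38a5 at 0.86 in DEP and Slc16a9 at 0.99 in DE, all under the threshold of 1. The part of these differences between replicates in the results, and that of feeder RNA, was not tested.

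Pdk1, a kinase that keeps pyruvate out of mitochondria, fell compared with ES in all populations, by 2.15 in DE, 1.38 in DEP, 1.87 in MES and 1.72 in MP. It read 8.83 and 8.88 in DE at day 4, 9.27 and 9.38 in DE at day 2, 9.86 and 9.70 in DEP at day 4, and 9.92 and 9.96 in DEP at day 2. The rest were 9.32 and 9.43 in MES at day 4, 9.48 and 9.46 in MP at day 4, 9.56 and 9.58 in MP at day 2, and 11.11 and 11.37 in ES. ES lay above every sorted array by more than 1. Txnip fell in DEP (-1.67), DE (-1.005, and -0.85, under the threshold, on day 4 alone) and MES (-1.28). Ldhb, a lactate dehydrogenase subunit, fell in DE (-1.18), and G6pc3, a glucose-6-phosphatase, rose in DE (1.22) and MES (1.06). Oat, which makes a proline precursor from ornithine, rose in DE (1.39), MES (1.03) and MP (1.23). These belong to 2 lists, counted here against the shares of all genes given above for each comparison with ES. Of 13 genes of glucose entry and lactate handling 1 rose and 3 fell in DE, 0 and 2 in DEP, 1 and 2 in MES, and 0 and 1 in MP. Of 10 genes of glutamine, glutamate and proline metabolism 1 rose in DE, 0 in DEP, 3 in MES (Oat, Gpt2 and Aldh18a1) and 1 in MP, and 0 fell in any of them.

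Of 13 genes of serine, glycine, threonine and cystine metabolism, Gcat, which acts in threonine breakdown (1.14), rose in DE compared with ES and Gclc (-1.58), Gclm (-1.20) and Cth (-1.03) fell. In MES, Shmt2 rose (1.01) and Gclm fell (-1.18), and in DEP and MP 0 of the 13 were called. Of 14 genes of the amino acid response 3 rose and 0 fell in MES (median 0.55), Vldlr (3.34), Atf3 (1.99) and Chac1 (1.68, adjusted p = 0.0487), the last of which had the ES arrays far apart. In the same list 1 rose in DE, 2 rose and 1 fell in DEP, and 1 rose and 1 fell in MP. Of 15 genes of amino acid sensing by mTORC1, Rragb fell in DE (-2.82) and MES (-1.04), Rragd rose in DEP (1.22), and 0 were called in MP. Emb was the only one of the 5 heavy chain and chaperone genes called compared with ES, in DE. Of all genes 9.21% were called in DE, 5.13% in DEP, 7.09% in MES and 5.15% in MP compared with ES.

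With the day, few transporters changed within a gate. In DE at day 4 compared with day 2, Slc38a5 (3.36-fold, log2 fold change 1.75 ± 0.15 (SE), adjusted p = 8.71e-05) and Slc7a8 (2.04-fold, log2 fold change 1.03 ± 0.13 (SE), adjusted p = 0.000728) rose and 0 fell (3.51% of 57, against 1.23% and 0.641% of all genes, 1.87% in all). The rise of Slc7a8 went below the threshold without DE day 2 replicate 1 (0.92) or DE day 4 replicate 2 (0.99). Slc38a3 (-0.95, adjusted p = 0.000303) and Slc38a1 (-0.79, adjusted p = 0.000540) had an adjusted p below 0.05 and a fold change under the limit. In the same comparison 4 of 10 visceral endoderm markers rose, Apoa1 (4.04), Hnf4a (2.36), Apob (1.96) and Rbp4 (1.86), and their mean over the 10 was 8.67 to 8.71 at day 4 and 7.37 to 7.52 at day 2. The other 6 were not called, Ttr (0.93, adjusted p = 0.00105) and Afp (-0.12, adjusted p = 0.534) among them. The part of such cells in the rise of Slc38a5 and Slc7a8 was not tested. In DEP at day 4 compared with day 2, Slc7a8 rose 2.84-fold (log2 fold change 1.503 ± 0.13 (SE), adjusted p = 0.000414) and 0 fell (1.75%, against 0.369% and 0.0748%, 0.443% in all). In MP, Slc2a3 rose 2.07-fold (log2 fold change 1.05 ± 0.11 (SE), adjusted p = 0.000161) and 0 fell (1.75%, against 1.22% and 0.513%, 1.74% in all), and Txnip rose there too (1.37, adjusted p = 0.00744).

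The 42 transporters with no call in the 11 comparisons were 11 of 12 Slc2a, 10 of 13 Slc16a, 4 of 7 Slc1a, 9 of 14 Slc7a and 8 of 11 Slc38a genes. Among them was Slc7a5, the main carrier of leucine in growing cells, at 12.59 and 12.57 in DE at day 4 and between 12.32 and 13.15 elsewhere. Slc38a2, a glutamine carrier that responds to amino acid shortage, lay between 12.49 and 12.99 on all arrays. The group means of 6 spanned over 1 without meeting both thresholds in any of the 11 comparisons. Of these, Slc7a7 had the widest span, at 1.26, and Slc38a4, which carries neutral and cationic amino acids, had 1.16.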

How the data were processed

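RNA was measured on 16 microarrays. The values are log2 signals per probe set, which the authors obtained from all arrays at once with RMA (oligo, version 1.48.0) before deposit, so that background correction, quantile normalization and summarization are already in these values. A common distribution hides changes of total RNA, and low signals are compressed toward 0. The number of arrays limits the precision.

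From 35556 probe sets, the 32000 of highest mean were kept and entered into a linear model (limma 3.58.1 under R 4.3.3, moderated by eBayes), with a mean for each of 8 groups, 8 residual degrees of freedom and no covariates. DE, DEP and MP are equal-weight means of both days unless a day is given, and MES is compared within day 4. P-values were adjusted over the 32000 probe sets of each comparison. They measure the spread between replicates that the labels call biological. Symbols are those of the platform annotation, in which 20427 of the probe sets kept have a single symbol, 1400 several and 10173 none. Probe sets carry no genome build, so coordinates are given for RefSeq windows only.

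Members and lists were chosen with earlier results of these data known. All transporters called in at least 1 of 11 comparisons are named, with every array, and of each metabolic list up to 4 called genes with the largest change. Other genes, such as Slc2a1, Slc7a5 and Slc38a2, were named after their values were seen. The 6 metabolic and 5 marker lists were written from textbook knowledge. In simulated data of 32000 probe sets, 98% of those changed by 1.5 were called for DE at day 4 compared with MES, with 5 unchanged ones called, 97% for DE compared with DEP, with 1 unchanged, and 85% for the test between the endoderm and mesoderm steps, with 10 unchanged. The simulated noise was independent between arrays, and changes under 1.5 were not simulated, so these shares do not describe calls nearer the threshold. Alternatives were other filters, variance models, scalings and thresholds, single days, a replicate block and leaving out each array. Deviations of same-numbered replicates correlated at -0.20 to 0.25 between groups.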

Additional observations from a re-analysis of the deposited data

Results flagged for a closer look

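Differences that themselves changed between days or lineages were tested as contrasts of contrasts in the same limma fit, and 17 passed. They were 3, 3 and 11 of 57 transporters, in the order below, against 1.05%, 1.57% and 7.39% of all genes.

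The difference between DE and DEP was larger on day 4 than on day 2 for Slc38a5 (1.51) and more negative for Slc38a3 (-1.14) and Slc38a1 (-1.05). Slc38a3 had -1.34 on day 4 and -0.20 on day 2. The value of Slc38a1 rests on its brighter probe set. The dimmer one was at -0.35 in the same limma fit (adjusted p = 0.705), and the mean of both gave -0.70. On the brighter one it was -0.92 without DE day 2 replicate 2 and -0.998 without DEP day 2 replicate 1, both under the threshold.

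The difference between DEP and MP was larger on day 4 than on day 2 for Slc7a3 (1.51), Slc7a8 (1.43) and Slc7a7 (1.05). On day 4 it was 1.20 for Slc7a7 and 1.63 for Slc7a8, and on day 2 it was 0.15 and 0.20 for the same genes.

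In the test between the steps, the direction of the CD24 gate and the medium differ along with the lineage. The step from DEP to DE on day 4 exceeded that from MP to MES for Slc38a5 (3.23), Slc2a3 (2.02), Slc7a8 (1.89) and Slc16a13 (1.61). It was below it for Slc7a3 (-2.50), Slc7a11 (-2.27), Slc38a3 (-1.71), Slc1a3 (-1.65), Slc38a1 (-1.61), Slc1a5 (-1.10) and Slc7a6 (-1.06). The dimmer probe set of Slc38a1 did not pass, at -0.76 in the same limma fit (adjusted p = 0.0845). For Slc1a5 neither step passed alone (-0.44 in the endoderm and 0.65 in the mesoderm step), nor for Slc7a6 (-0.78 and 0.29). Without DE day 4 replicate 1 the difference between the steps was -0.97 for Slc7a6, under the threshold of 1.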

How the results depend on the processing

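Each call of a transporter was repeated under the alternatives. Of 1439 such repeats of 60 calls, 1410 kept direction and call, 29 kept the direction and lost the call, and 0 reversed. Part of these repeats could not go otherwise, so the tally does not measure how firm the calls are. Lifting the fold limit keeps every call. Leaving out an array of a group outside the comparison leaves its fold change as it was. Averaging probe sets alters only genes with several of them. A call whose gene a filter left out, as with Slc7a11 under 16000 probe sets, is not among these repeats. With an adjusted p below 0.05 and no fold limit, the counts of called transporters were 23 for DE at day 4 compared with MES, 11 for DEP compared with MP, 27 for DE compared with DEP and 4 for MES compared with MP. Compared with ES the counts were 15 for DEP (26.8%), 22 for DE (40.4%), 13 for MP (26%) and 17 for MES (26%), all near the shares of all genes. For day 4 compared with day 2 they were 10 in DE (8.78%) and 8 in MP (7.56%). The change with the day of DEP compared with MP had 5 (2.49%) and the test between the steps 17 (16.5%). The same rule called 0.903% to 40.4% of all genes in the 14 comparisons. On day 2 alone the counts were 1 for DEP compared with MP, 5 for DE compared with DEP and 1 for DEP compared with ES. On day 4 alone they were 7 for DEP compared with MP and 5 for MP compared with ES. On day 2 alone MP compared with ES had 2 calls, and 0 of them were those of both days. With both days of MP averaged, 1 (Slc1a3) was called between MES and MP.

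Leaving out 1 array at a time gave 8 to 11 calls for DE at day 4 compared with MES, 2 to 2 for DEP compared with MP, 8 to 8 for DE compared with DEP and 0 to 0 for MES compared with MP. Compared with ES it gave 3 to 5 in DEP, 9 to 10 in DE, 1 to 3 in MP and 4 to 5 in MES, where 1 in MP was without ES replicate 1. Day 4 compared with day 2 gave 1 to 3 in DE, 1 to 2 in DEP and 1 to 1 in MP, where 1 in DE was without DE day 2 replicate 1 and 2 in DEP (Slc7a8 and Slc7a11) without either ES replicate. The changes with the day gave 2 to 4 for DE compared with DEP and 3 to 4 for DEP compared with MP, and the steps gave 10 to 12.

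Deviations of same-numbered arrays correlated at -0.20 to 0.25 over 28 pairs of groups (median 0.04), and 8 pairs were over 0.1. The labels do not say whether replicate numbers pair the samples. With a replicate block, counts were as without it in all 14 comparisons (9 for DE at day 4 compared with MES and 8 for DE compared with DEP). With 2 arrays per group, differences near 1 on the log2 scale are the least firm.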
